A study of Mus musculus with 9 samples.

Results

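Period, cryptochrome and clock output genes were measured by RNA sequencing in lung smooth muscle of mice, with cells sorted by fluorescence and 9 libraries in 3 groups of 3. The 10 genes were taken by symbol from a table of 21049 genes: Per1, Per2, Per3, Cry1, Cry2, Nr1d1, Nr1d2, Dbp, Tef and Ciart. All 10 were in the table, and all 10 were among the 15647 genes tested, which reached 10 or more in 3 or more libraries. SmMCll libraries held total pulmonary smooth muscle cells, venous cells included, from mice of the genotype tg-Acta2-GFP. PASMCs libraries held pulmonary arterial smooth muscle cells from ASMC-effector mice of the genotype Cspg4/Acta2-CreER/R26-GFP. BSMCs libraries held bronchial smooth muscle cells from NVSMC-effector mice of the genotype Chrm2/Acta2-CreER/R26-GFP. The labels give all 3 groups tamoxifen for 3 days, dosed at 0.75 mg for every 10 g of weight. Every line was marked through Acta2, a gene that fibroblasts of the myofibroblast kind also use. No mouse line was shared between groups, so the cells sorted and the line they came from cannot be told apart. The age of the mice and the time of day at which lungs were taken are not given in the sources used here, and the part of time of day in the results was not tested.

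The mammalian clock is a loop of transcription. CLOCK or its relative NPAS2 pairs with BMAL1, the product of Arntl, and the pair binds E-box letters and switches on the Per and Cry genes, whose proteins then hold the pair back. The same pair drives Nr1d1 and Nr1d2, whose REV-ERB proteins repress Arntl through ROR elements, and Dbp and Tef, whose PAR bZIP proteins bind D-box letters. In mouse lung these transcripts rise and fall daily, with Arntl and Npas2 out of step with Dbp, Nr1d1 and Per3.

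Promoter windows show how these letters lie near the starts of the genes. RefSeq windows of build GRCm38.p6, each with 250 bases before and 50 after an annotated start, were found for 9 of the 10 genes, and none was used for Per2. The searched letters were CACGTG for the E-box, TTATGNAA for the D-box, TAGGTCA for the ROR element and TGACGTCA for the cAMP response element, on both strands, and no match overlapped another. The E-box letters were in windows of 4 of the 9 genes (Ciart, Cry1, Per1 and Tef), against 8.09% of all 27025 genes with a window. The D-box letters were in windows of 2 (Per1 and Per3), against 3.99% of all genes. Neither the ROR letters nor the cAMP letters were in a window of the 9 genes, and 2.97% and 2.03% of all genes held them. A match describes letters only, and an absent match says only that these letters are not in this window.

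Windows of 5 genes are printed, being some of those that hold matches and that of Dbp, whose level differed from BSMCs in both other groups. Cry1, with an E-box at 60 bases before the start, and Tef, with 1 at 127 and 138 bases before its starts, are not printed. Capitals mark matches. Ciart (chr3:95882179-95882478, minus strand) had 3 E-boxes that began 116, 58 and 44 bases before the start. Per3 (chr4:151044616-151044915, minus strand) had a pair of D-boxes at 205 and 158 bases. Per1 (chr11:69098699-69098998, plus strand) had an E-box at 166 and a D-box at 24 bases before the upstream of its starts. Dbp (chr7:45704997-45705296, plus strand) had no match. Arntl (chr7:113207261-113207560, plus strand), which is not among the 10 genes, had a ROR element that began 30 bases after the downstream of its starts.
Ciart: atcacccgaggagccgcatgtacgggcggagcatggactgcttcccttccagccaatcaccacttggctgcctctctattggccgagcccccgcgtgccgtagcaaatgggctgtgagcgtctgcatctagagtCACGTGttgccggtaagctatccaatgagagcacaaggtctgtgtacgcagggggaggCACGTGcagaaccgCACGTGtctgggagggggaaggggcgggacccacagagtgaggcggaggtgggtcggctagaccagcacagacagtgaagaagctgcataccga
Per3: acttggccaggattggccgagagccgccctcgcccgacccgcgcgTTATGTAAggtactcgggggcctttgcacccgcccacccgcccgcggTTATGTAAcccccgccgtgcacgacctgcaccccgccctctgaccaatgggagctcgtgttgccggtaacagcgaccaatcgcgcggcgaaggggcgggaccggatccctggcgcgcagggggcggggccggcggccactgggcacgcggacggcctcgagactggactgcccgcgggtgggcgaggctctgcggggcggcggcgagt
Per1: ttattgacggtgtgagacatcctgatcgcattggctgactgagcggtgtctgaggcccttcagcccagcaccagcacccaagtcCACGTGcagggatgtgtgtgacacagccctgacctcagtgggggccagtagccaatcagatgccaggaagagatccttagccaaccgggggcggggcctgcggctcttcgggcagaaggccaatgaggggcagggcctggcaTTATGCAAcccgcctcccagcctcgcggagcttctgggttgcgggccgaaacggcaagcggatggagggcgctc
Dbp: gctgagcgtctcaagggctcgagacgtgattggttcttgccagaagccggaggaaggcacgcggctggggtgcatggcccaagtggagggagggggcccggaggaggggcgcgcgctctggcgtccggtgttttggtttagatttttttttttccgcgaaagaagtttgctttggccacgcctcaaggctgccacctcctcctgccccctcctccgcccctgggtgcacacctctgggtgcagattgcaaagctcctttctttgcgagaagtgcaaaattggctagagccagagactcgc
Arntl: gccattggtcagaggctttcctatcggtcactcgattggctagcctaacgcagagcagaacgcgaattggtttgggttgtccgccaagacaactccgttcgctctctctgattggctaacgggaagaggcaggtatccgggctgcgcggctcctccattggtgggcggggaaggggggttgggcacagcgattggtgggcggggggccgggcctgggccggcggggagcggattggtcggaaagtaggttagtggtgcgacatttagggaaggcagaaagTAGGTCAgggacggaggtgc

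**Figure D1:**
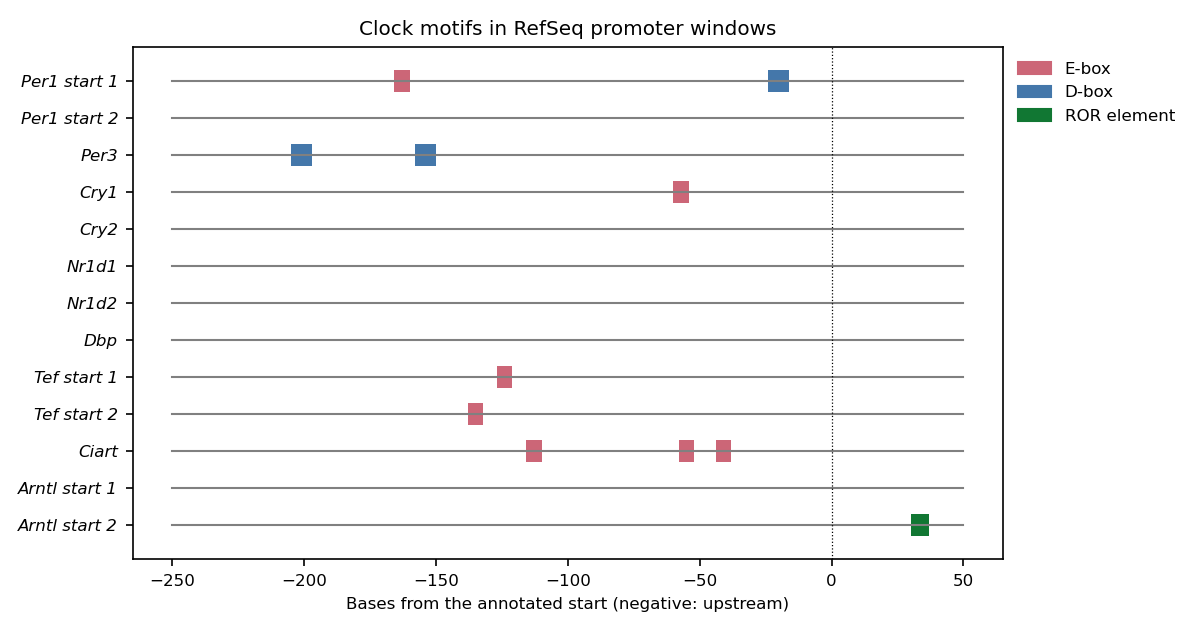
Positions of clock motifs in RefSeq promoter windows (build GRCm38.p6). Each line is a window, the horizontal axis is the distance from the annotated start in bases, and boxes are matches. Ciart holds 3 E-boxes, Per3 a pair of D-boxes, and Dbp, Nr1d1, Nr1d2 and Cry2 hold no match.

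Values below are read counts per gene that the authors had normalized and rounded to whole numbers, given per library as replicates 1, 2 and 3 or as mean ± SD (n = 3 per group). Depth was read back from the spacing of the values, at 8.93 to 9.90 M reads in SmMCll, 8.92 to 10.02 in PASMCs and 6.39 to 9.33 in BSMCs. Markers did not bear out the labels in full. Airway smooth muscle markers summed to 1806 to 1839 counts per M (CPM) in libraries labelled PASMCs and 1012 to 1040 in those labelled BSMCs, and vascular markers to 1465 to 1620 and 1460 to 1670. Leukocyte markers summed to 379 to 488 CPM in SmMCll, 305 to 322 in PASMCs and 1227 to 1812 in BSMCs. The leukocyte gene Ptprc had values of 0, 4 and 3 in SmMCll, 0 in every PASMCs library and 760, 569 and 391 in BSMCs. In bulk RNA, fewer cells of a type and less RNA per cell cannot be told apart.

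Per exonic length, the levels of the 10 genes covered a wide range. Nr1d1, the REV-ERB alpha repressor, had the highest mean level over the 9 libraries, at 909 normalized reads per kb of exon, above 98.1% of tested genes. Nr1d2, the REV-ERB beta repressor, followed at 207 per kb. Tef, Cry2, Dbp and Cry1 lay between 111 and 147 per kb, Per2 was at 42.7 and Per1 at 27.7. Per3 was at 13.5 and Ciart at 8.99 per kb, above 17.0% of tested genes. The group means kept Nr1d1 at the top, at 740 per kb in SmMCll, 946 in PASMCs and 1041 in BSMCs, while Dbp was at 95.1 per kb in SmMCll, 106 in PASMCs and 220 in BSMCs.

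**Figure D2:**
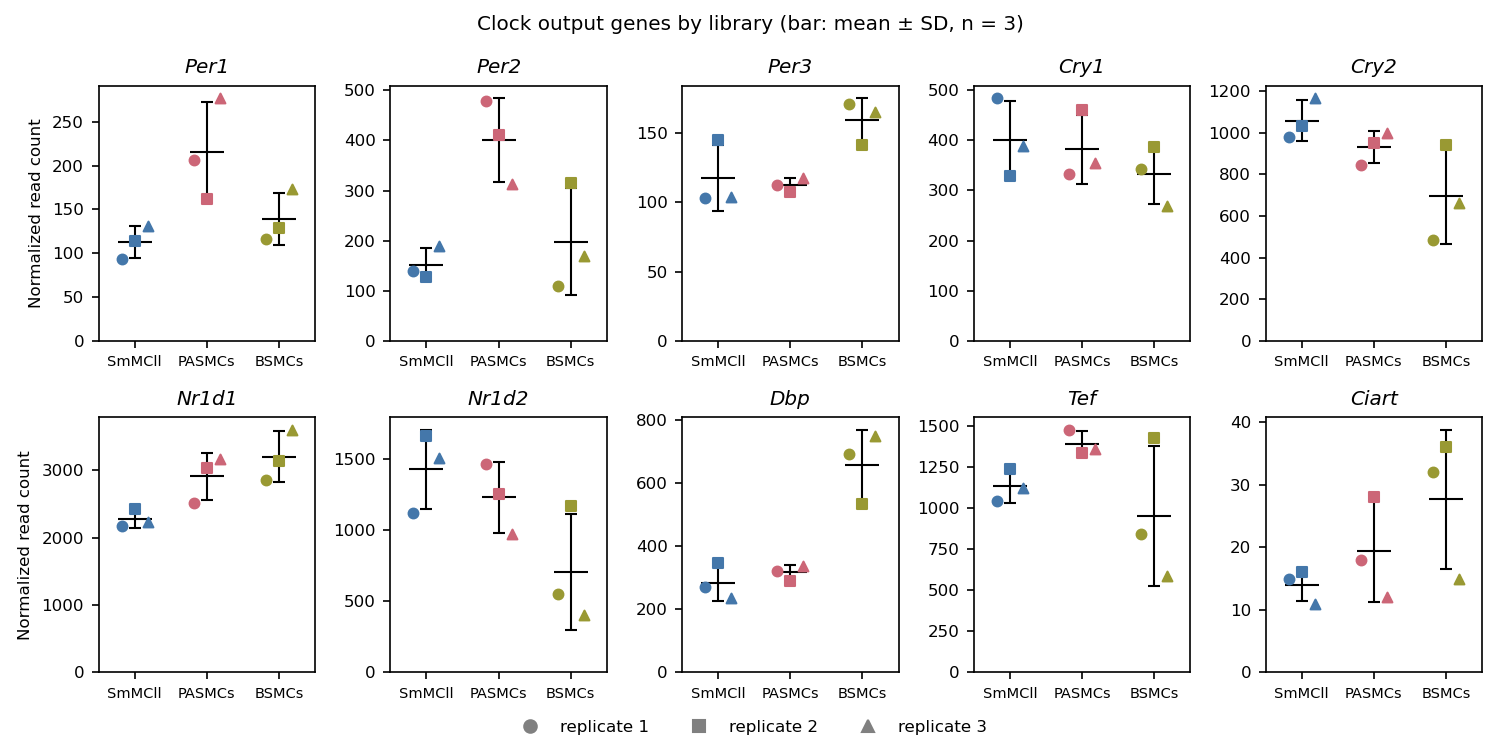
Normalized read counts of the 10 clock genes in each library. Groups run along the horizontal axis, symbols mark the replicate, and bars give mean ± SD (n = 3). Dbp lies between 535 and 750 in BSMCs, above every library of SmMCll and PASMCs, and BSMCs replicate 2 stands above the other BSMCs libraries for Nr1d2, Tef, Per2 and Cry2.

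Dbp, which encodes the D-box activator, was lower in SmMCll and in PASMCs than in BSMCs, and alone among the 10 genes was called against BSMCs by both groups. Dbp (ENSMUSG00000059824, mm39 chromosome 7, 45354512 to 45359627) had values of 271, 347 and 236 in SmMCll, 322, 290 and 339 in PASMCs and 692, 535 and 750 in BSMCs. Every BSMCs library lay above every library of the other groups, while SmMCll and PASMCs overlapped. In limma, Dbp fell by 1.21 on the log2 scale in SmMCll against BSMCs (SE 0.19, adjusted p = 0.00050) and by 1.04 in PASMCs against BSMCs (SE 0.19, adjusted p = 0.00271). Between SmMCll and PASMCs the log2 difference was -0.17 (95% interval -0.59 to 0.25, adjusted p = 0.652). Both calls held in all 22 alternatives, with log2 values of -1.37 to -1.03 and of -1.18 to -0.81.

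Summed leukocyte markers, like Dbp, were lower in SmMCll and PASMCs than in BSMCs, averaging 417, 312 and 1610 CPM in that order. In SmMCll over PASMCs, where Dbp was not called, 9 of 12 were higher and 1 lower. There 5 of 5 erythroid markers were higher, against 9.39% of all genes higher and 6.83% lower. Against BSMCs, 12 of the 12 tested leukocyte markers were lower in SmMCll and 11 of 12 in PASMCs. Their part in the Dbp difference was not tested. The shares of all genes were 18.2% lower and 23.7% higher in SmMCll over BSMCs, and 8.88% and 13.2% in PASMCs over BSMCs. Erythroid markers were lower in 4 of 5 in SmMCll and 5 of 5 in PASMCs, with sums of 8.82 to 16.8 CPM in SmMCll, 0.810 to 2.34 in PASMCs and 35.0 to 84.5 in BSMCs. Fibroblast markers were higher in 5 of 10 in SmMCll and 6 of 10 in PASMCs, with 0 lower by limma at either p, and sums of 5236 to 5803 CPM in SmMCll, 4129 to 4601 in PASMCs and 3483 to 3939 in BSMCs. Their part was not tested either. BSMCs replicate 2 had both the lowest leukocyte sum of its group, 1227 CPM, and the lowest Dbp value, 535. It was also the lowest of its group for 35.7% of all genes tested, and it was picked after the values were seen. The span of Dbp, introns included, also shares 737 bases with that of Sphk2, a sphingosine kinase gene on the other strand. The SMART-Seq v4 kit does not mark strand, and the exon bases in common were not measured. Sphk2 was at 520 ± 47.4 in SmMCll, 699 ± 75.1 in PASMCs and 769 ± 150 in BSMCs. It was lower in SmMCll than in BSMCs (log2 -0.55, adjusted p = 0.0209) and not called between PASMCs and BSMCs (-0.13, adjusted p = 0.595).

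Tef, the relative of Dbp among the PAR bZIP factors, was called in no comparison. Tef (ENSMUSG00000022389, chromosome 15, 81686622 to 81711064) had values of 1040, 1237 and 1119 in SmMCll, 1476, 1337 and 1361 in PASMCs and 844, 1423 and 588 in BSMCs. SmMCll and PASMCs did not overlap. BSMCs replicate 2 lay inside the PASMCs range and above every SmMCll library, and the other BSMCs libraries lay below both groups. The log2 difference was 0.64 between PASMCs and BSMCs (95% interval 0.10 to 1.18, adjusted p = 0.0790), 0.34 between SmMCll and BSMCs (-0.20 to 0.88, adjusted p = 0.277) and -0.30 between SmMCll and PASMCs (-0.84 to 0.24, adjusted p = 0.504). Without BSMCs replicate 2 Tef passed against BSMCs, at 0.98 in PASMCs (adjusted p = 0.000918) and 0.68 in SmMCll (0.00411). It also passed in PASMCs over BSMCs with array weights (0.0158) and in SmMCll over PASMCs in the fit of the pair alone (0.0461). Within a library the ratio of Dbp to Tef was 0.261, 0.281 and 0.211 in SmMCll, 0.218, 0.217 and 0.249 in PASMCs and 0.820, 0.376 and 1.28 in BSMCs.

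The REV-ERB genes moved in opposite directions between SmMCll and BSMCs. Nr1d1 (ENSMUSG00000020889, chromosome 11, 98658758 to 98666159) had values of 2177, 2427 and 2231 in SmMCll, 2519, 3039 and 3172 in PASMCs and 2863, 3141 and 3604 in BSMCs. All SmMCll libraries lay below all others, and PASMCs overlapped BSMCs. Nr1d1 fell by 0.49 on the log2 scale in SmMCll against BSMCs (limma, SE 0.12, adjusted p = 0.00907). It was at -0.35 in SmMCll against PASMCs (95% interval -0.62 to -0.08, adjusted p = 0.0826) and at -0.14 in PASMCs against BSMCs (-0.41 to 0.13, adjusted p = 0.422). The call was lost only on reads without scaling between libraries (-0.30, adjusted p = 0.186), where the median of all genes stood at 0.23. SmMCll over PASMCs passed in 5 of 22 alternatives, with quantile normalization (0.0459), equal totals (0.0461), array weights (0.01004), the pair alone (0.0247) and without BSMCs replicate 3 (0.0474).

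Nr1d2 (ENSMUSG00000021775, chromosome 14, 4230569 to 4265642) had values of 1121, 1661 and 1506 in SmMCll, 1469, 1253 and 973 in PASMCs and 548, 1168 and 402 in BSMCs. Only BSMCs replicate 2 reached into the range of the other groups. Nr1d2 was 2.21-fold higher in SmMCll than in BSMCs (limma, log2 1.15, SE 0.32, adjusted p = 0.0150). In PASMCs it was at 0.93 over BSMCs (95% interval 0.23 to 1.64, adjusted p = 0.0577) and SmMCll stood at 0.22 over PASMCs (-0.49 to 0.92, adjusted p = 0.752). The SmMCll call was lost without BSMCs replicate 1 (adjusted p = 0.0538) or SmMCll replicate 2 (0.0602) or 3 (0.0516). The difference of PASMCs from BSMCs passed without BSMCs replicate 2 (1.37, adjusted p = 0.000862), with the replicate block (0.93, 0.0386), voom weights (0.0415), array weights (0.0110) and a pseudocount of 10 (0.0474).

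The span of Nr1d1, introns included, shares 1075 bases with that of Thra, the thyroid hormone receptor alpha gene on the other strand. Thra was at 1264 ± 157 in SmMCll, 1703 ± 267 in PASMCs and 1896 ± 370 in BSMCs, and was lower in SmMCll than in BSMCs (log2 -0.57, adjusted p = 0.0172). How many of the shared bases are exons of both genes was not measured, and reads of such bases cannot be told apart. The ratio of Nr1d1 to Nr1d2 within a library was 1.94, 1.46 and 1.48 in SmMCll, 1.71, 2.43 and 3.26 in PASMCs and 5.22, 2.69 and 8.97 in BSMCs.

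**Figure D3:**
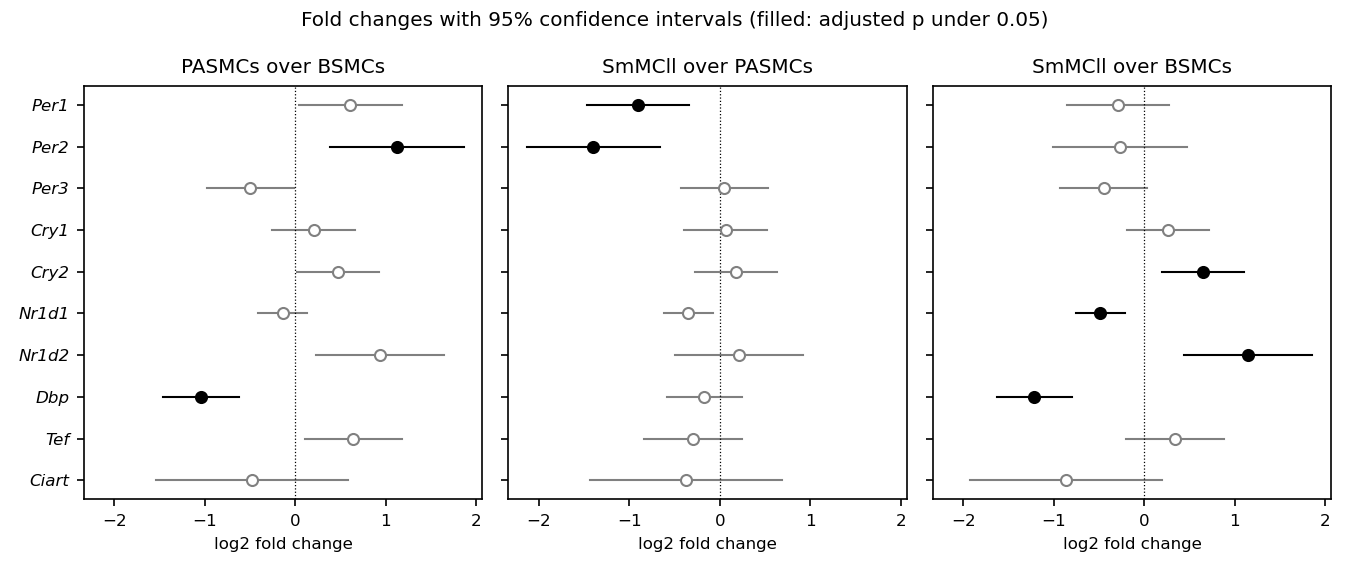
Log2 fold changes of the 10 clock genes with 95% confidence intervals from limma, in 3 comparisons. Filled points have an adjusted p under 0.05. Dbp lies at -1.04 and -1.21 against BSMCs, and Per1 lies at -0.90 in SmMCll against PASMCs, with Per2 lower still.

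Among the period genes, which encode the repressors that accumulate with the cryptochromes, Per1 and Per2 were higher in PASMCs than in SmMCll. Per2 (ENSMUSG00000055866, chromosome 1, 91343704 to 91387046) had values of 139, 127 and 189 in SmMCll, 479, 411 and 313 in PASMCs and 110, 316 and 169 in BSMCs. PASMCs lay above SmMCll in every library, and BSMCs replicate 2 lay just inside the PASMCs range. Per2 was 2.63-fold lower in SmMCll than in PASMCs (limma, adjusted p = 0.0144), was 2.18-fold higher in PASMCs than in BSMCs (log2 1.13, SE 0.34, adjusted p = 0.0350), and stood at -0.27 in SmMCll against BSMCs (95% interval -1.01 to 0.47, adjusted p = 0.533).

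Markers of other cells also separated SmMCll from PASMCs, a comparison in which 9.39% of all genes were higher and 6.83% lower in SmMCll. Leukocyte markers were higher in SmMCll in 9 of 12 and lower in 1, and erythroid markers were higher in 5 of 5. Mesothelial markers were higher in 6 of 6, with sums of 587 to 738 CPM in SmMCll and 28.4 to 47.8 in PASMCs, and endothelial markers in 6 of 10, with 1567 to 1932 CPM in SmMCll and 966 to 1226 in PASMCs. Vascular smooth muscle markers were lower in 6 of 9 and higher in 1, with 758 to 846 CPM in SmMCll and 1465 to 1620 in PASMCs. Their part in the Per1 and Per2 differences was not tested.

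The Per2 calls lay near the threshold. The call between SmMCll and PASMCs was lost without PASMCs replicate 1 (adjusted p = 0.0634) or 2 (0.0539), or SmMCll replicate 1 (0.0578) or 2 (0.0685), and on reads without scaling (0.0516), with log2 differences of -1.26 to -1.45 in those fits. That between PASMCs and BSMCs was lost without BSMCs replicate 1 (0.120) or 3 (0.0775), PASMCs replicate 1 (0.129) or 2 (0.102), or SmMCll replicate 1 (0.0510) or 2 (0.0504). It was also lost on reads without scaling (0.0532), in the fit of the pair alone (0.0697) and with plain eBayes, that is without its trend and robust options (0.0758). The log2 difference of PASMCs from BSMCs was 0.77 without BSMCs replicate 1 and 0.99 without PASMCs replicate 1, and stayed at 1.13 without either SmMCll replicate.

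Per1 (ENSMUSG00000020893, chromosome 11, 68986043 to 69000786) is a period gene that light, hormones and cAMP signals can also induce. It had values of 94, 114 and 131 in SmMCll, 206, 162 and 277 in PASMCs and 116, 129 and 173 in BSMCs. PASMCs lay above SmMCll without overlap, and BSMCs reached into both ranges. Per1 fell by 0.90 on the log2 scale in SmMCll against PASMCs (limma, SE 0.26, adjusted p = 0.0340). It stood at 0.61 in PASMCs over BSMCs (95% interval 0.04 to 1.17, adjusted p = 0.105) and at -0.29 in SmMCll over BSMCs (-0.86 to 0.27, adjusted p = 0.377). The call was lost without PASMCs replicate 1 (0.0876) or 3 (0.146), or SmMCll replicate 1 (0.137), 2 (0.0929) or 3 (0.0600), at log2 differences of -0.70 to -1.01. PASMCs over BSMCs passed on reads without scaling (0.84, adjusted p = 0.0374).

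Per3 (ENSMUSG00000028957, chromosome 4, 151088109 to 151129122), the period gene with the weakest loss-of-function effect on the mouse clock, had values of 103, 145 and 104 in SmMCll, 112, 107 and 117 in PASMCs and 171, 141 and 165 in BSMCs. PASMCs lay below BSMCs without overlap, and SmMCll replicate 2 reached the BSMCs range. The log2 difference from BSMCs was -0.50 in PASMCs (95% interval -0.98 to -0.02, adjusted p = 0.117) and -0.45 in SmMCll (-0.93 to 0.03, adjusted p = 0.119). Neither passed in limma. Under quantile normalization SmMCll over BSMCs passed (-0.60, adjusted p = 0.0429). All of Per3 lies within the span of Camta1, a transcription activator gene on the same strand in the table. Camta1 averaged 269 in SmMCll, 355 in PASMCs and 489 in BSMCs, lower in SmMCll than in BSMCs (-0.86, adjusted p = 0.00496), and its part in the Per3 values was not tested.

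The cryptochromes, which repress the CLOCK and BMAL1 pair most directly, gave 1 call. Cry2 (ENSMUSG00000068742, chromosome 2, 92233991 to 92264388) had values of 977, 1029 and 1165 in SmMCll, 845, 949 and 999 in PASMCs and 483, 941 and 661 in BSMCs. SmMCll lay above BSMCs in every library, and PASMCs overlapped both. Cry2 was 1.57-fold higher in SmMCll than in BSMCs (limma, log2 0.65, SE 0.21, adjusted p = 0.0258) and stood at 0.47 in PASMCs over BSMCs (95% interval 0.02 to 0.92, adjusted p = 0.115).

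The SmMCll call of Cry2 was lost in 8 of 22 alternatives. These were the fits without BSMCs replicate 1 (adjusted p = 0.0864) or SmMCll replicate 2 (0.0611) or 3 (0.0960), quantile normalization (0.0596), equal totals (0.0585), reads without scaling (0.0508), plain eBayes (0.0604) and the pair alone (0.0508). Without BSMCs replicate 2, Cry2 also passed between PASMCs and BSMCs (0.72, adjusted p = 0.00493), as it did with array weights (0.0354). Cry1 (ENSMUSG00000020038, chromosome 10, 84967564 to 85020928) had values of 484, 329 and 389 in SmMCll, 332, 461 and 354 in PASMCs and 342, 387 and 269 in BSMCs. All groups overlapped, and its log2 differences ran from 0.06 to 0.27 with no call.

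Ciart, which encodes the repressor CHRONO of the same loop, had the lowest level of the 10 genes per exonic length and was called in no comparison. Ciart (ENSMUSG00000038550, chromosome 3, 95785815 to 95789563) had values of 15, 16 and 11 in SmMCll, 18, 28 and 12 in PASMCs and 32, 36 and 15 in BSMCs. The groups overlapped in all comparisons. The difference between SmMCll and BSMCs was -0.86 (95% interval -1.92 to 0.20, adjusted p = 0.170), an interval that takes in both no difference and a difference as large as that of Dbp. The span of the non-coding gene C920021L13Rik, introns included, covers all 3749 bases of Ciart on the other strand. How many exon bases the genes share was not measured, and reads of any such bases cannot be told apart. C920021L13Rik averaged 13.7 in SmMCll, 24.3 in PASMCs and 46.7 in BSMCs, and was lower in SmMCll than in BSMCs (log2 -1.82, adjusted p = 0.0167).

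Set against all genes, the clock output genes were called about as often as any. Between PASMCs and BSMCs 2 of 10 were called (Per2 higher, Dbp lower), against 22.1% of all genes tested, 13.2% higher and 8.88% lower. Between SmMCll and PASMCs 2 of 10 were called (Per1 and Per2, both lower), against 16.2%, 9.39% higher and 6.83% lower. Between SmMCll and BSMCs 4 of 10 were called (Nr1d2 and Cry2 higher, Dbp and Nr1d1 lower), against 41.9%, 23.7% higher and 18.2% lower, and quantile normalization gave 1 higher and 3 lower in place of 2 and 2. Over all genes that normalization also moved the split, to 2017 higher and 2072 lower in PASMCs over BSMCs, 1330 and 1416 in SmMCll over PASMCs and 3217 and 4049 in SmMCll over BSMCs, against 2062 and 1389, 1470 and 1069, and 3706 and 2847 without it. Libraries of the groups did not overlap for 2, 4 and 3 of the 10 genes in these comparisons, against 35.2%, 40.5% and 50.5% of all genes. The median log2 difference of the 10 genes was 0.34, -0.23 and -0.28, where that of all genes was 0.05, 0.03 and 0.05. Each pair of comparisons shares a group, so they are not independent of each other.

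BSMCs replicate 2 shaped much of the spread. It had the highest value of its group for 6 of the 10 genes, against 36.1% of all genes tested, and at least 1.4 times the higher of the other BSMCs libraries for 4 of the 10 (Per2, Cry2, Nr1d2 and Tef), against 14.1%. The library and the ratio of 1.4 were picked after the values were seen. Within BSMCs the coefficient of variation was 57.6% for Nr1d2, 53.5% for Per2, 45.0% for Tef and 33.2% for Cry2, against a median of 24.8% over all genes. For Nr1d1 it was 11.7% and for Per3 9.98%. The same library was the deepest of its group, at 9.33 M reads against 7.14 and 6.39 M, and the part of depth in these values was not tested.

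The positive limb of the loop was higher in SmMCll and in PASMCs than in BSMCs, the opposite direction to Dbp. Of the 6 core activator genes tested, 4 were higher and 0 lower in SmMCll over BSMCs, where 23.7% of all genes were higher, with 0 lower at an unadjusted p under 0.05 as well. In PASMCs over BSMCs, where 13.2% of all genes were higher, 3 were higher and 0 lower, again with 0 lower at an unadjusted p. In SmMCll over PASMCs limma called 0, and 1 passed at an unadjusted p (Clock, 0.51, adjusted p = 0.155, and called with array weights at 0.0169 and in the pair alone at 0.0288). Arntl2, a relative of Arntl, had values of 89, 97 and 95 in SmMCll, 89, 64 and 72 in PASMCs and 48, 69 and 23 in BSMCs, and was higher in SmMCll than in BSMCs by 1.12 (limma, adjusted p = 0.0301). That call was lost without BSMCs replicate 3 (0.0817) or SmMCll replicate 1 (0.0672), 2 (0.0823) or 3 (0.0859), on reads without scaling (0.0511) and in the pair alone (0.0557). The median log2 difference of the list was 1.06, 0.66 and 0.27 in that order. The fibroblast markers ran in the same direction as these genes, and their part was not tested. The list was chosen with earlier results of these data known.

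Npas2, the CLOCK relative (ENSMUSG00000026077, chromosome 1, 39232812 to 39402317), had values of 1708, 1356 and 1650 in SmMCll, 1448, 1401 and 1240 in PASMCs and 494, 847 and 573 in BSMCs. Neither group overlapped BSMCs. Npas2 was 2.51-fold higher in SmMCll than in BSMCs (limma, log2 1.33, SE 0.19, adjusted p = 0.000235) and 2.19-fold higher in PASMCs (log2 1.13, SE 0.19, adjusted p = 0.00146). Both calls held in all 22 alternatives.

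Clock itself had values of 991, 1246 and 1299 in SmMCll, 1047, 749 and 708 in PASMCs and 551, 506 and 324 in BSMCs. It was 2.61-fold higher in SmMCll than in BSMCs (limma, adjusted p = 0.000561) and 1.83-fold higher in PASMCs than in BSMCs (adjusted p = 0.0168). The PASMCs call was lost without PASMCs replicate 1 (0.0827) and with plain eBayes (0.0516).

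Arntl, the gene of BMAL1, had values of 1231, 1051 and 1170 in SmMCll, 1068, 1176 and 932 in PASMCs and 749, 880 and 588 in BSMCs. It was higher in SmMCll than in BSMCs by 0.65 (limma, adjusted p = 0.00811) in all 22 alternatives, and in PASMCs by 0.53 (adjusted p = 0.0382), a call that passed in 9 of 22 alternatives with an adjusted p of 0.00538 to 0.141. Leaving out BSMCs replicate 1 (0.0812) or 3 (0.111), PASMCs replicate 1 (0.115) or 2 (0.141), or SmMCll replicate 1 (0.0543), 2 (0.0521) or 3 (0.0621) ended it, as did quantile normalization (0.0540), cyclic loess (0.0555), equal totals (0.0603), reads without scaling (0.0734), plain eBayes (0.0818) and the pair alone (0.0875). Rora, the activator that competes with REV-ERB for ROR elements, was at 1640 ± 98.5 in SmMCll, 1791 ± 56.1 in PASMCs and 1557 ± 175 in BSMCs, with no call.

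**Figure D4:**
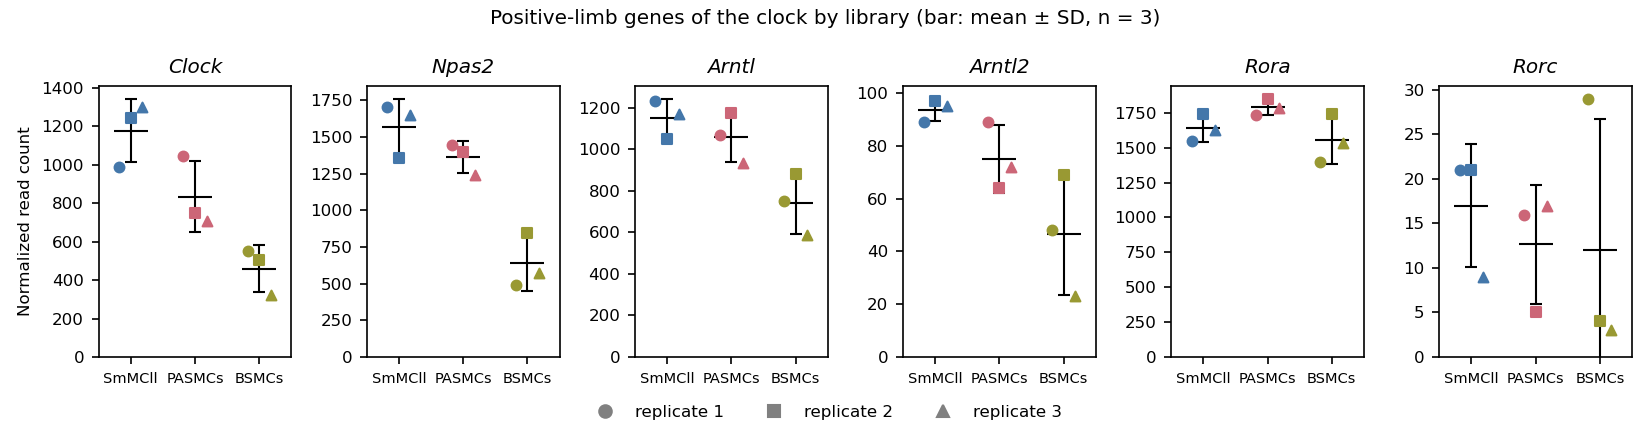
Normalized read counts of the positive-limb genes in each library, with groups on the horizontal axis and mean ± SD (n = 3) as bars. Clock, Npas2 and Arntl lie higher in every SmMCll and PASMCs library than in any BSMCs library, and Rora overlaps in all groups.

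Ratios within a library do not depend on how libraries were scaled to each other. The log2 ratio of Dbp to Npas2 was -2.66, -1.97 and -2.81 in SmMCll, -2.17, -2.27 and -1.87 in PASMCs and 0.49, -0.66 and 0.39 in BSMCs. The linear ratio of Dbp to Arntl was 0.220, 0.330 and 0.202 in SmMCll, 0.301, 0.247 and 0.364 in PASMCs and 0.924, 0.608 and 1.28 in BSMCs. The ratio of Dbp to Clock was 0.273, 0.278 and 0.182 in SmMCll, 0.308, 0.387 and 0.479 in PASMCs and 1.26, 1.06 and 2.31 in BSMCs. In all 3 ratios every BSMCs library lay above every other library. That follows from the values above, where every BSMCs library was highest for Dbp and lowest for Npas2, Arntl and Clock, and is no separate result. SmMCll and PASMCs overlapped for Npas2 and Arntl but not for Clock.

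**Figure D5:**
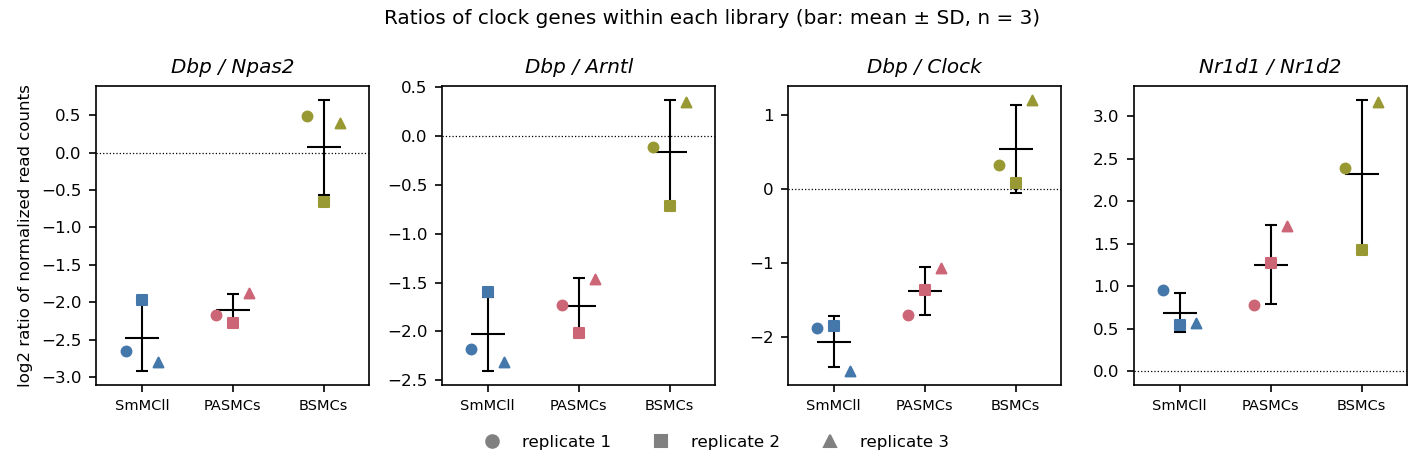
Log2 ratios of clock genes within each library, with groups on the horizontal axis and mean ± SD (n = 3) as bars. Dbp over Npas2 averages -2.48 in SmMCll, -2.10 in PASMCs and 0.07 in BSMCs, and no BSMCs library reaches the other groups in the ratios with Dbp.

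Among 10 further outputs and repressors of the clock, 3 were higher and 0 lower in SmMCll over BSMCs, and the same counts held in PASMCs over BSMCs, with 0 lower at an unadjusted p under 0.05 in both (limma). Of all genes, 23.7% were higher and 18.2% lower in SmMCll over BSMCs, and 13.2% and 8.88% in PASMCs over BSMCs. Bhlhe40, which encodes the E-box repressor DEC1, was at 1139 ± 111 in SmMCll, 830 ± 95.6 in PASMCs and 536 ± 91.5 in BSMCs, higher than in BSMCs by 1.10 in SmMCll (adjusted p = 0.000267) and 0.64 in PASMCs (0.0149). Wee1, the clock-controlled kinase that restrains entry into mitosis, was higher by 0.95 in SmMCll (0.0231) and 1.24 in PASMCs (0.0119). Tsc22d3, a glucocorticoid-induced gene that is rhythmic in many tissues, was higher by 0.33 (0.0457) and 0.65 (0.00280). In SmMCll over PASMCs 0 were higher and 1 was lower, Nfil3, the repressor that competes with DBP for D-boxes (573 ± 89.6 in SmMCll and 944 ± 220 in PASMCs, -0.71, adjusted p = 0.0255), with 1 higher at an unadjusted p. Hlf, the remaining PAR bZIP gene, and Usp2, a rhythmic deubiquitinase gene, were not called, at 0.41 and 0.04 in PASMCs over BSMCs.

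A further list held 28 genes, for enzymes that modify or degrade clock proteins and for other partners of the clock. It gave 7 higher and 4 lower in SmMCll over BSMCs, and 5 higher and 1 lower in PASMCs over BSMCs. These are 39.3% and 21.4% of the list, against 41.9% and 22.1% of all genes, so the counts are near the background. Csnk1d, the casein kinase that marks PER proteins for degradation, was at 2284 ± 251 in SmMCll, 2487 ± 211 in PASMCs and 1693 ± 437 in BSMCs, higher than in BSMCs by 0.46 (limma, adjusted p = 0.0476) and 0.58 (0.0308). Prkaa2, a catalytic subunit gene of AMPK, which marks CRY1 for degradation, was higher by 0.77 (0.0151) and 0.94 (0.0112). Csnk2b, the regulatory subunit gene of casein kinase 2, fell by 1.00 in SmMCll (0.00120) and by 0.57 in PASMCs (0.0410). In SmMCll over PASMCs limma called 0 of the 28, while 1 was higher and 3 lower at an unadjusted p under 0.05.

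Per1 is also a glucocorticoid target and an immediate early gene, so those lists were read beside it. In SmMCll over PASMCs, where Per1 fell, 0 of 18 glucocorticoid response genes were higher and 3 lower (limma, with 0 higher at an unadjusted p): Ddit4, an inhibitor of mTOR signalling, fell by 2.55 (adjusted p = 0.00339), Zbtb16, a zinc finger factor gene, by 1.33 (0.0389) and the kinase gene Sgk1 by 0.54 (0.0184). Of all genes 6.83% were lower in that comparison. In PASMCs over BSMCs 8 of 18 were higher, against 13.2% of all genes, and 0 lower, with 0 lower at an unadjusted p. Zbtb16 was at 648 ± 331 in PASMCs and 107 ± 57.7 in BSMCs (2.59, adjusted p = 0.000837), and Fkbp5, a co-chaperone of the receptor, at 779 ± 114 in PASMCs and 307 ± 81.4 in BSMCs (2.57-fold, adjusted p = 0.000859). In SmMCll over BSMCs 6 were higher and 3 lower, 9 of 18 in all, against 41.9% of all genes, with Fkbp5 at 985 ± 183 in SmMCll (1.69, adjusted p = 9.67e-05). The median of the list was -0.28, 0.66 and 0.26 in these comparisons.

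Immediate early and dissociation genes gave 2 higher and 5 lower of 28 in SmMCll over PASMCs, which is 25.0% of the list against 16.2% of all genes. The higher genes were Fosl1, at 29.0 ± 23.4 in SmMCll and 2.67 ± 2.89 in PASMCs, and Klf2, at 1466 ± 81.8 and 971 ± 99.6. Egr1 was not called (limma, -0.09, adjusted p = 0.699), and Fos and Jun overlapped between all groups. Atf3, a stress-induced factor gene, was at 461 ± 66.0 in SmMCll, 1555 ± 445 in PASMCs and 489 ± 121 in BSMCs, and fell by 1.72 in SmMCll against PASMCs (limma, adjusted p = 0.000340). The AP-1 gene Fosb was at 186 ± 36.6 in SmMCll, 460 ± 159 in PASMCs and 232 ± 90.0 in BSMCs (-1.26 in SmMCll over PASMCs, adjusted p = 0.0213). In PASMCs over BSMCs 8 were higher and 1 lower, and in SmMCll over BSMCs 6 were higher and 3 lower, each 32.1% of the list, against 22.1% and 41.9% of all genes. The part of either list in the Per1 and Per2 differences was not tested.

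Likeness of pattern was measured as the root mean square distance between log2 values, each centred on its mean over the 9 libraries. The genes nearest to Dbp were 2300009A05Rik at 0.12, Ccl27a at 0.12 and 1190007I07Rik at 0.13. Nearest to Nr1d2 were Snx13 at 0.07 and Lancl2 at 0.11, and nearest to Tef was Atp6v1a at 0.07. Nearest to Per2 were Ttc34 at 0.20, Olfml2a at 0.22 and Itga9 at 0.22. Nearest to Per1 was Tns1 at 0.15. Nearest to Cry2 was Smo at 0.08, to Cry1 Fbxl5 at 0.11, to Nr1d1 Wdyhv1 at 0.09, to Per3 Cmc1 at 0.09 and to Ciart Prkar2b at 0.26. None of the 10 genes was among the 3 nearest of another.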

How the data were processed

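RNA was sequenced from smooth muscle cells sorted from mouse lung, in 3 libraries for each of 3 groups taken from the titles. Per the labels' protocols, SMART-Seq v4 libraries were made from no more than 10 ng of RNA. The submitters' processing notes name the build mm39, DESeq2 1.36.0 and featureCounts 2.0.4 besides STAR 2.7.11a, Trimmomatic 0.39 and Picard 3.1.1, with no role or order. The deposited values, held here as a score, are read counts per gene that the authors scaled by library and rounded to whole numbers. This was read from whole numbers that are skipped or doubled in each column, and that spacing gave a factor per library, checked on simulated data, and with it the depth of 6.39 to 10.02 M reads. Totals of the deposited values were 7.98 to 9.41 M.

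Genes that reached 10 or more in 3 or more libraries were tested as log2(value + 1) in 1 limma fit of all 9 libraries (R 4.3.3, limma 3.58.1, with the trend and robust options of eBayes), with Benjamini-Hochberg adjustment over all 15647 genes, and called at an adjusted p under 0.05. The test was tried on simulated data. Fold changes are on the log2(value + 1) scale, which understates low genes. GENCODE vM21 gave exon lengths, matched on identifiers for 96.7% of genes, and RefSeq the promoter sequences (GRCm38.p6). Sums of marker lists are CPM of each library's total. Tables and plots used Python 3.11.15, numpy 2.4.6, pandas 2.3.3 and matplotlib 3.10.9. Whether libraries of a group came from separate animals is not in the labels, and p-values therefore measure only the spread between libraries, which may be technical. No pair of libraries within a group was a copy, with a chi-square per gene of 6.55 to 32.9. Alternatives were other pseudocounts, filters, scalings, weights and fits, and each library left out. All 10 clock genes and the core activators are named in every comparison, up to 3 called genes of each other list in each direction, and the 3 genes nearest in pattern to each clock gene, of which the text gives a part. These genes and lists were chosen with earlier results of these data known.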

Additional observations from a re-analysis of the deposited data

How the results depend on the processing

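The count of clock output genes called moved with single libraries. Leaving out each library in turn gave 1 to 5 genes in PASMCs over BSMCs, 2 to 5 in SmMCll over BSMCs and 0 to 3 in SmMCll over PASMCs, where limma called 0 without PASMCs replicate 1 or SmMCll replicate 1 or 2, with 3, 2 and 3 genes at an unadjusted p under 0.05. Over all genes, leaving out 1 library gave 1701 to 6364, 4254 to 8056 and 1597 to 3205 calls, against 3451, 6553 and 2539 with all libraries. In PASMCs over BSMCs array weights gave 5 clock genes, plain eBayes 1 and the fit of the pair alone 1. In SmMCll over BSMCs reads without scaling gave 2. In SmMCll over PASMCs reads without scaling gave 1 and the pair alone 4. The pair alone called 1941 genes in PASMCs over BSMCs and 4231 in SmMCll over PASMCs, and array weights 5082 in SmMCll over PASMCs. With a replicate block, 3, 4 and 2 clock genes were called in PASMCs over BSMCs, SmMCll over BSMCs and SmMCll over PASMCs. Deviations of same-numbered libraries correlated at -0.12 to 0.14 and over 0.1 in 1 of 9 pairs, and those of differently numbered libraries at -0.19 to 0.14. These values show no sign that the numbers pair the libraries, but cannot exclude it. Of 1050 refits of single clock genes and core activators, 975 did not change their call, some of them uncalled differences near 0 whose sign turned, 52 lost a call, 23 gained 1 and 0 reversed a called direction. Reads without scaling moved the median of all genes to 0.28 in PASMCs over BSMCs and to 0.23 in SmMCll over BSMCs. The cause of these moves was not tested. Low values limit Ciart, and BSMCs varied most.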
